A study of Mus musculus with 15 samples.

Results

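The 9 genes described here are mRNAs of ATP-dependent chromatin remodellers that together took most of the remodeller counts in ribosome-bound RNA of mouse eggs and early embryos: Smarca2, Smarca4, Atrx, Chd4, Chd7, Chd2, Bptf, Brd9 and Brd7. They were taken by symbol from a table of 55490 genes, 21447 of them protein-coding, and were chosen by the high counts of the group in these libraries. Those levels are therefore a description and were not tested as a group. Of the 9, 6 encode the ATPase itself (Smarca2, Smarca4, Atrx, Chd4, Chd7 and Chd2) and 3 encode other subunits of remodelling complexes (Bptf, Brd9 and Brd7).

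Remodellers are motors that use ATP to slide, evict or exchange nucleosomes. The SWI/SNF (BAF) complexes open chromatin with either Smarca2 (BRM) or Smarca4 (BRG1) as their motor, the CHD proteins and the ISWI complexes space or remove nucleosomes, and Atrx places the histone variant H3.3 in heterochromatin together with Daxx. In the egg the proteins are made from stored maternal mRNA, and maternal Smarca4 is known as a gene whose loss impairs activation of the zygotic genome in the mouse.

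All eggs and embryos came from female mice of strain B6D2F1 that carried an HA tag on Rpl22, a ribosomal protein, so that ribosomes could be pulled down with their RNA. The mothers were knockout (KO) or heterozygous (Het) for Eif4e1b, a form of the cap-binding factor eIF4E found in germ cells, so the controls carry 1 Eif4e1b allele and are not wild type. The 15 libraries were M2 eggs (2 Het, 2 KO), zygotes at the PN5 pronuclear stage (3 Het, 3 KO) and early 2-cell embryos, called E2C (3 Het, 2 KO). Each held about 200 pooled eggs or zygotes or about 100 pooled early 2-cell embryos, and the labels do not say whether libraries came from separate mothers, so a p-value here covers the spread between these libraries, which may be technical.

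Library totals ran from 93222 to 1201146 counts, but protein-coding genes took only 0.696% to 5.10% of them. The protein-coding counts were 5997 to 47399 in M2, 8614 to 39997 in PN5 and 1059 to 7795 in E2C. A level is given here in percent, as the share of a library's protein-coding counts that fell on the gene. It is not divided by transcript length, so it compares one gene between libraries and does not rank genes. A share is relative: fewer ribosomes on an mRNA, less of the mRNA and more of the others cannot be told apart. A gene at 0 in a library may hold a share of up to 0.00633% to 0.283% (3 counts, counting error only), and the highest of these limits belong to E2C. Eif4e1b had 0 counts in all 15 libraries, so the genotype labels could not be checked on it. Of 20 oocyte markers 11 had counts, 514 in all, 351 of them Npm2 in 2 libraries. Of all protein-coding genes 17.7% had a count. Zp1, Zp2, Zp3, Padi6, Oosp1, Tle6, Kpna7, Oog1 and Khdc3 were at 0, so defining markers of the egg, the zona pellucida genes among them, were not detected. Of 10 markers of the 2-cell embryo 3 had counts, 9 in all. Cumulus and granulosa markers had 695 counts, 561 of them Cyp11a1 in 5 libraries. Their summed share was 0.0584% and 0.823% in M2 Het, at most 0.116% in M2 KO, at most 0.0677% in PN5 Het, 0.212% to 0.888% in PN5 KO and at most 0.0128% in E2C, and its part in the genotype differences was not tested. All 8 sperm markers were at 0, and 6 blood markers had 1 count.

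The 9 mRNAs had 10736 counts, or 4.2% of the 255766 protein-coding counts of the 15 libraries. Their summed share was 3.004% and 3.34% in the M2 Het libraries and 3.87% and 3.27% in M2 KO. It was 4.56%, 5.07% and 8.83% in PN5 Het against 3.09%, 2.83% and 5.48% in PN5 KO, and it was 2.46%, 3.26% and 3.71% in E2C Het against 3.27% and 2.73% in E2C KO. As group means this was 3.17 ± 0.239% (SD, n = 2), 3.57 ± 0.422% (n = 2), 6.15 ± 2.34% (n = 3), 3.80 ± 1.46% (n = 3), 3.14 ± 0.635% (n = 3) and 2.997 ± 0.380% (n = 2) in that order. PN5 Het stood highest, and 1 PN5 KO library lay within its range.

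Smarca2 made that peak of the group means. Without it the other 8 mRNAs summed to between 1.58% and 3.63% of the protein-coding counts over all 15 libraries, with M2 group means of 1.99% (Het) and 2.74% (KO), and of 2.095% in PN5 Het, 2.45% in PN5 KO, 2.67% in E2C Het and 2.09% in E2C KO. PN5 Het was then no longer the highest group. In PN5 Het 1, however, Smarca2 was only 1.62% and the other 8 were 2.93% of the protein-coding counts. Smarca2 held 43.2% and Atrx 30.6% of the 9 genes' counts.

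**Figure D1:**
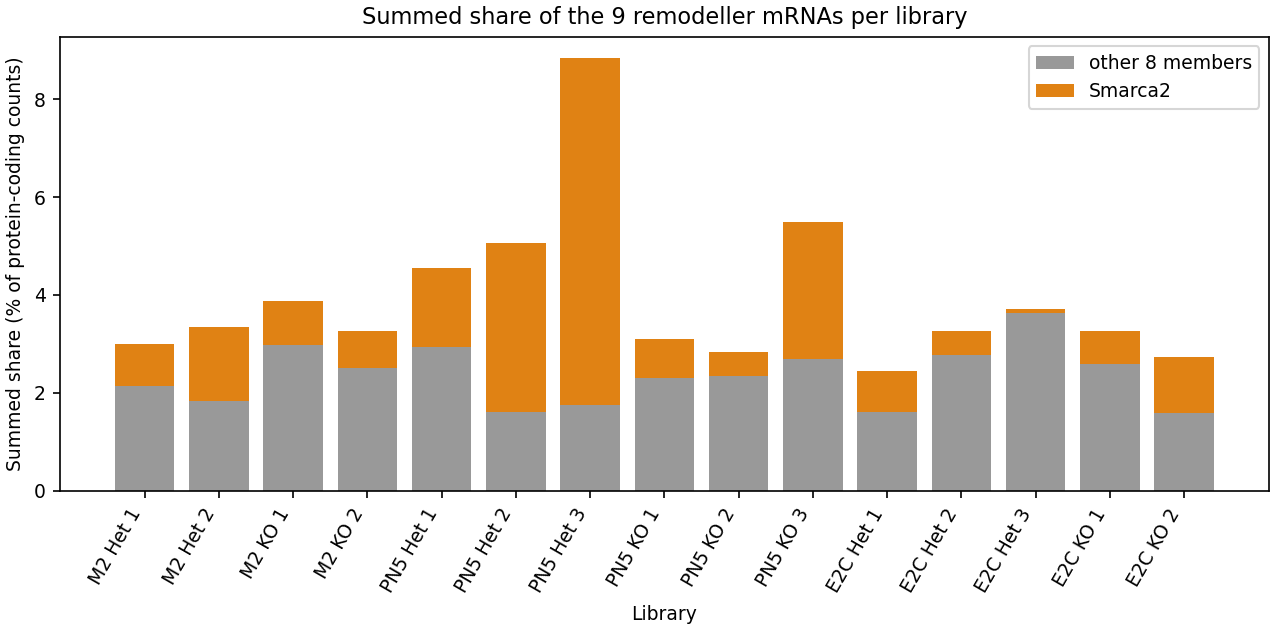
Summed share of the 9 remodeller mRNAs in each of the 15 libraries, in percent of protein-coding counts, with Smarca2 stacked on the other 8. The tallest bar is PN5 Het 3 at 8.83%, of which 7.08% is Smarca2, and the part below Smarca2 stays between 1.58% and 3.63%.

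Smarca2 (ENSMUSG00000024921, chromosome 19, 26605073 to 26778321 on GRCm38) encodes BRM, a motor of the BAF complexes. It had 4633 counts and was found in all 15 libraries. Its share was 0.861% and 1.50% in M2 Het, 0.884% and 0.768% in M2 KO, 1.62%, 3.47% and 7.08% in PN5 Het, 0.799%, 0.474% and 2.79% in PN5 KO, 0.850%, 0.483% and 0.0770% in E2C Het, and 0.678% and 1.14% in E2C KO. The 3 PN5 Het libraries were above all M2 and E2C libraries, and among the other libraries only PN5 KO 3 reached their range. The group means ran in the order PN5 Het (4.06 ± 2.78%), PN5 KO (1.35 ± 1.25%), M2 Het (1.18 ± 0.452%), E2C KO (0.911 ± 0.330%), M2 KO (0.826 ± 0.0819%) and E2C Het (0.470 ± 0.387%). From PN5 KO downwards each pair of neighbours in that order overlapped in its libraries, and PN5 Het overlapped PN5 KO. The E2C Het values rest on few reads, 9, 8 and 6 counts.

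Smarca4 (ENSMUSG00000032187, chromosome 9, 21616106 to 21704230) encodes BRG1, the other BAF motor. It had 308 counts, again spread over all 15 libraries. Its share was 0.354% and 0.0674% in M2 Het, 0.0667% and 0.0169% in M2 KO, 0.0758%, 0.0241% and 0.139% in PN5 Het, 0.0325%, 0.119% and 0.0900% in PN5 KO, 0.567%, 1.15% and 0.936% in E2C Het, and 0.308% and 0.0880% in E2C KO. The 3 E2C Het libraries were above every other library in their shares, those of E2C KO included. By counting error alone, however, E2C Het 1 (exact binomial interval 0.208% to 1.23%) was not set apart from either E2C KO library. The group mean was 0.884 ± 0.294% in E2C Het (n = 3, 6, 19 and 73 counts) and 0.198 ± 0.156% in E2C KO (n = 2, 5 and 1 counts). The other 4 group means lay between 0.0418% in M2 KO and 0.211% in M2 Het. M2 Het owed its value to replicate 1, which held 74 of the 89 counts.

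In Het, E2C libraries thus had less Smarca2 and more Smarca4 than PN5 libraries. The balance between both genes within a library does not depend on how libraries are scaled. Of the counts of both genes, Smarca2 held 70.9% and 95.7% in M2 Het, 93.0% and 97.8% in M2 KO, 95.5%, 99.3% and 98.1% in PN5 Het, and 96.1%, 80% and 96.9% in PN5 KO. In E2C Het it held 60%, 29.6% and 7.59%, with 95% exact binomial intervals of 32.3% to 83.7%, 13.8% to 50.2% and 2.84% to 15.8%. In E2C KO it held 68.8% (41.3% to 89.0%) and 92.9% (66.1% to 99.8%). The 3 E2C Het libraries lay below all the others, but the interval of the first overlaps those of both E2C KO libraries, M2 Het 1, M2 KO 1 and PN5 KO 2, and that of the second overlaps E2C KO 1. This ratio was chosen after its values were seen and carries no test. The intervals cover counting error only. Over the 15 libraries the shares of both genes had a Spearman correlation of -0.41, given as a description, since the libraries share groups and depth.

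**Figure D2:**
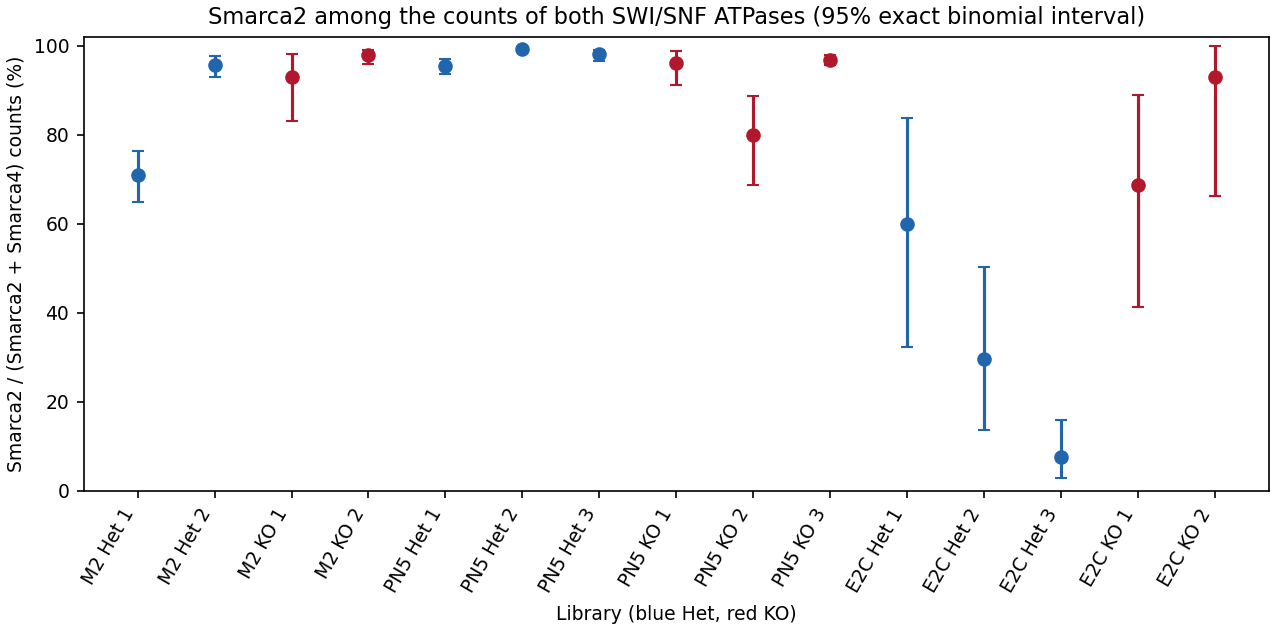
Smarca2 as a percentage of the Smarca2 and Smarca4 counts of each library, with exact 95% binomial intervals (blue Het, red KO). The 10 M2 and PN5 libraries and both E2C KO libraries lie between 68.8% and 99.3%, while the E2C Het libraries lie at 60%, 29.6% and 7.59%.

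Atrx (ENSMUSG00000031229, chromosome X, 105797615 to 105929372) encodes the motor that works with the histone chaperone Daxx. It had 3290 counts in all 15 libraries and the lowest dispersion of the 9 between replicates (a biological coefficient of variation of 0.714 in the edgeR fit described below, against a median of 1.36 over 425 protein-coding genes). Its share was 1.19% and 1.28% in M2 Het, 2.40% and 1.66% in M2 KO, 1.28%, 0.702% and 1.24% in PN5 Het, 1.52%, 1.39% and 1.20% in PN5 KO, 0.755%, 0.604% and 1.15% in E2C Het, and 1.17% and 0.704% in E2C KO. The group means ran from 2.03 ± 0.524% in M2 KO (n = 2) over 1.37 ± 0.162% in PN5 KO, 1.24 ± 0.0697% in M2 Het, 1.08 ± 0.324% in PN5 Het and 0.937 ± 0.330% in E2C KO to 0.838 ± 0.284% in E2C Het. Both M2 KO libraries were above all the others. Daxx had 0 counts in all libraries.

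The CHD family members differed in how often they were found. Chd4 (ENSMUSG00000063870, chromosome 6, 125095980 to 125130591), the motor of the NuRD complex, which joins remodelling to histone deacetylation, had 1016 counts in all 15 libraries. Its group means were 0.240% (Het) and 0.303% (KO) at M2, 0.388% and 0.429% at PN5, and 0.491% and 0.458% at E2C. The libraries ranged from 0.123% to 0.949%, both from E2C, and the means of PN5 and E2C differed by less than the SD of any of those 4 groups.

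Chd7 (ENSMUSG00000041235, chromosome 4, 8690402 to 8868449), a remodeller that works at enhancers, had 527 counts in 11 libraries. Its share was 0.0717% and 0.193% in M2 Het, 0.133% and 0.0823% in M2 KO, 0.352%, 0.449% and 0 in PN5 Het, 0.130%, 0.144% and 0.180% in PN5 KO, 0, 0.665% and 0.295% in E2C Het, and 0 in both E2C KO libraries. In E2C Het 34 counts came from 2 of 3 libraries. The E2C Het mean of 0.320 ± 0.333% was 2.94-fold the limit of 3 counts over both E2C KO libraries. E2C Het 1 was itself at 0, and the E2C KO libraries taken singly allow 0.185% and 0.264%, so no least fold is shown. Chd2 (ENSMUSG00000078671, chromosome 7, 73426652 to 73541746), which acts with histone H3.3 at active genes, had 159 counts in 10 libraries. Its group means were at most 0.0850% in M2 and PN5, it had 0 counts in the 3 E2C Het libraries, and E2C KO 1 alone held 16 counts (0.986%), while E2C KO 2 held 0.

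Bptf, Brd9 and Brd7 encode subunits that read acetylated or methylated histones and were found in fewer libraries. Bptf (ENSMUSG00000040481, chromosome 11, 107033081 to 107132147), the large subunit of the ISWI complex NURF, had 294 counts in 5 libraries. These were 0.122% in 1 of 2 M2 KO libraries, 0.255% and 0.196% in 2 of 3 PN5 Het libraries, and 0.288% and 0.108% in 2 of 3 PN5 KO libraries. It was at 0 in M2 Het and in all 5 E2C libraries. The PN5 Het mean of 0.150 ± 0.133% was 21.6-fold the limit for M2 Het, though PN5 Het 3 itself was at 0, so no least fold is shown.

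Brd9 (ENSMUSG00000057649, chromosome 13, 73937801 to 73960895), a subunit of the non-canonical BAF complex, had 359 counts in 6 libraries, 56.0% of them in PN5 KO 3. Its share there was 0.503%, and it was 0.206% in M2 Het 1, 0.133% in PN5 Het 1, 0.266% in PN5 KO 1, 0.121% in E2C Het 2 and 0.295% in E2C Het 3. Brd7 (ENSMUSG00000031660, chromosome 8, 88329894 to 88362252), a subunit of the polybromo form PBAF, had all 150 counts in 2 libraries, 0.230% in M2 KO 2 and 0.111% in PN5 Het 1. No group of Brd9 or Brd7 was without a library at 0.

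**Figure D3:**
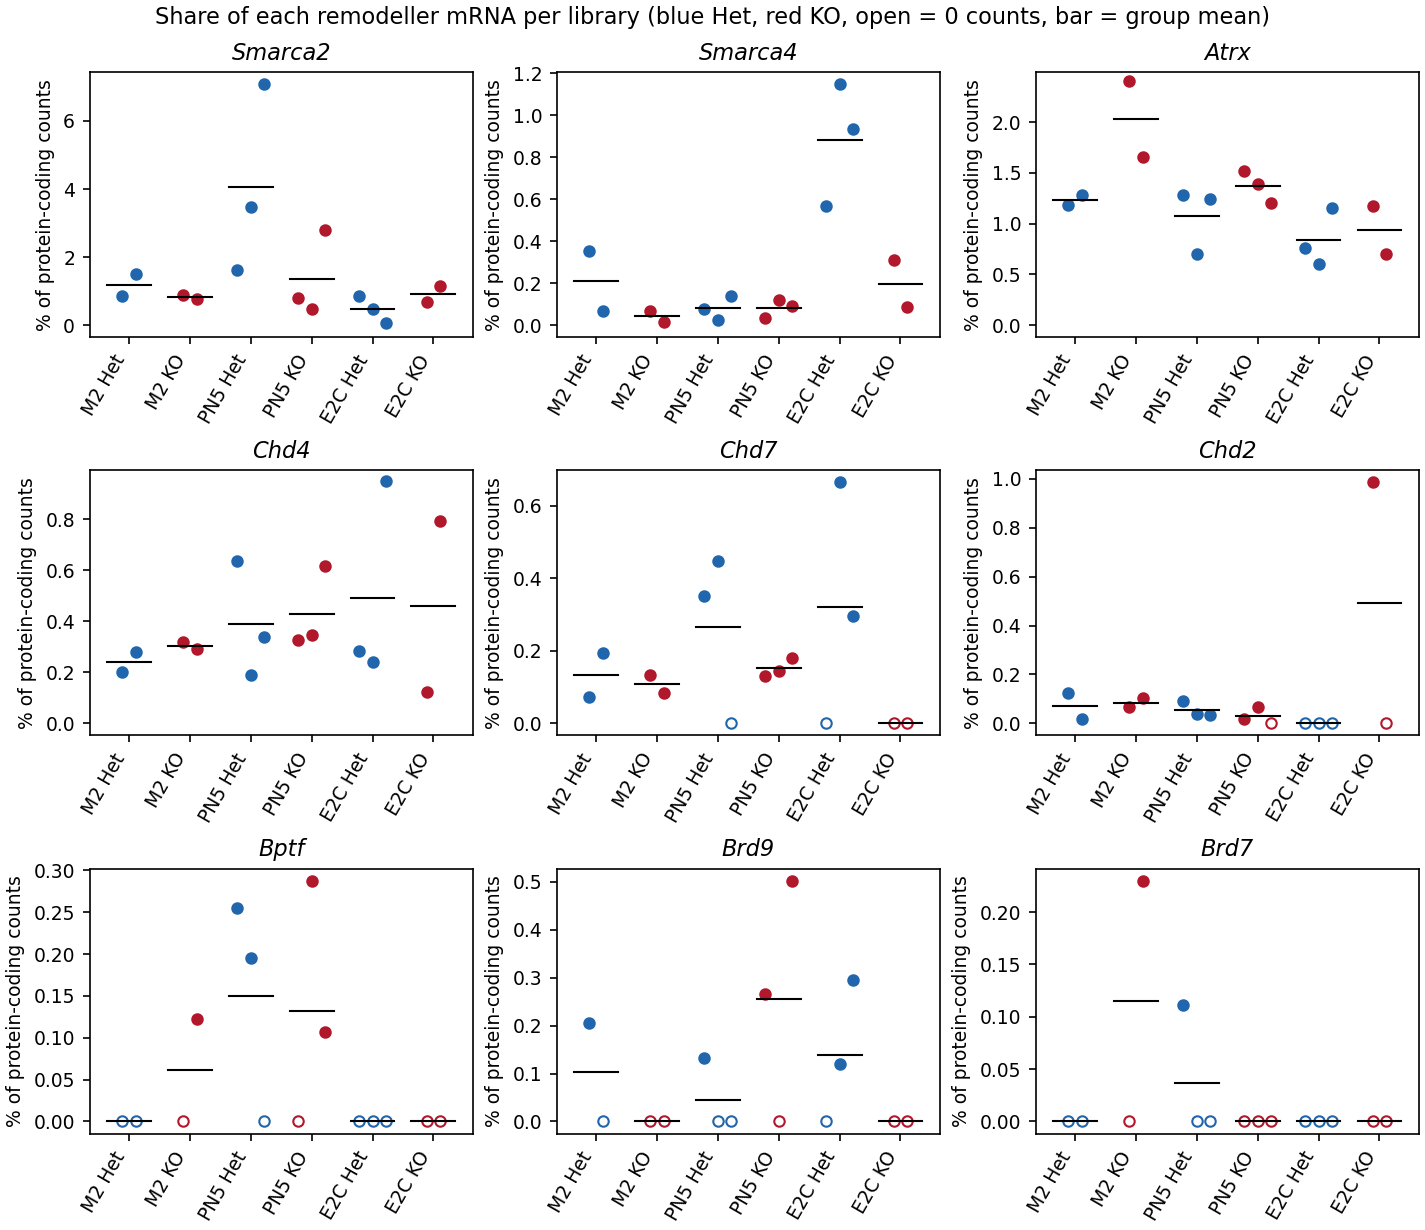
Share of each of the 9 mRNAs in every library, in percent of protein-coding counts, by group (blue Het, red KO, open circles 0 counts, bars the group means; each panel has its own axis). Smarca2 is highest in PN5 Het, Smarca4 in E2C Het, Atrx is present everywhere, and Bptf, Brd9 and Brd7 are at 0 in most libraries.

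The genotype comparison asks whether these mRNAs were bound by ribosomes differently in eggs and embryos of mothers without Eif4e1b. One edgeR quasi-likelihood model was fitted to the 495 genes that passed a filter on low counts, and its p-values were adjusted over all of them by Benjamini-Hochberg. All 9 members passed. No member was called for KO against Het at M2, PN5 or E2C or for the mean of the 3 stages, and neither was any other gene (0% in each comparison). At an unadjusted p under 0.05 the same test took 6 genes at M2 (1.21%), 35 at PN5 (7.07%), 25 at E2C (5.05%) and 20 for the mean of the stages (4.04%). Among the members these were none at M2 and PN5, Chd2 and Chd7 at E2C, and Smarca4 and Chd7 for the mean. DESeq2 called 2 (0.404%), 2 (0.404%), 4 (0.808%) and 2 genes (0.404%) and limma-voom 0 in each, and none of these calls was a member. The members were chosen with these results known, so their values describe them and support nothing.

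At M2 the 2 genotypes did not overlap in their shares for 3 of the 9 members, against 22.8% of the 425 protein-coding genes tested. This measure, here and below, leaves out counting error. Smarca4 was lower in both KO libraries, with a log2 fold change of -2.50 ± 1.38 (SE, edgeR adjusted p = 1). Atrx (0.48 ± 0.97, adjusted p = 1) and Chd4 were higher. For Smarca4, M2 Het replicate 2 (0.0674%, 15 counts) and M2 KO replicate 1 (0.0667%, 4 counts) nearly tied. Their binomial intervals overlapped, at 0.0377% to 0.111% and 0.0182% to 0.171%. M2 KO replicate 2 lay lower (8 counts, 0.00729% to 0.0333%) and M2 Het replicate 1 higher (74 counts, 0.278% to 0.444%). The Chd4 intervals of the genotypes overlapped too, and those of Atrx did not. The log2 fold change of Smarca4 was -1.27 without M2 Het replicate 1, -1.81 without M2 KO replicate 2, -3.15 without M2 Het replicate 2 and -3.50 without M2 KO replicate 1. For Smarca2 the difference was -0.80 ± 1.24 (adjusted p = 1) with overlapping libraries, and it rested on M2 Het replicate 2: without that library it was -0.0014, and without M2 Het replicate 1 it was -1.31.

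At PN5 no member had groups without overlap (7.06% of the protein-coding genes had). Smarca2 was at 1.35 ± 1.25% in KO against 4.06 ± 2.78% in Het (n = 3 each), a log2 fold change of -1.46 ± 1.02 (edgeR adjusted p = 1). Without PN5 KO replicate 3 it was -2.81, and without PN5 KO replicate 2 or PN5 Het replicate 3 it was -0.97 and -0.99. For Atrx the difference was 0.27 ± 0.79, for Chd4 0.15 ± 1.02 and for Chd7 -1.03 ± 1.45 (edgeR adjusted p = 1 for each). Smarca4 was at -0.07, with a sign that turned under each of the 3 other scalings.

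At E2C Smarca4 was the only member whose groups did not overlap, against 11.1% of protein-coding genes. It was lower in KO by a log2 fold change of -2.56 ± 1.34 (edgeR adjusted p = 0.897, and 0.504 to 1 over the alternatives). Without E2C KO replicate 1 the value was -3.85, and without E2C KO replicate 2 it was -1.92. Smarca2 leaned the other way, at 0.72 ± 1.15 (adjusted p = 1), with overlapping libraries. Averaged over the 3 stages, the KO minus Het difference on the log2 scale was -1.71 ± 0.72 for Smarca4 (unadjusted p = 0.031, edgeR adjusted p = 1), -0.51 ± 0.66 for Smarca2 and 0.17 ± 0.52 for Atrx (adjusted p = 1 for both). No member passed in the test of whether the KO difference changed between successive stages. The lowest edgeR adjusted p of a member was 0.848 for PN5 against M2 and 0.84 for E2C against PN5. No gene was called in either by edgeR, DESeq2 or limma-voom (0%), and edgeR took 26 (5.25%) and 25 genes (5.05%) at an unadjusted p under 0.05.

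**Figure D4:**
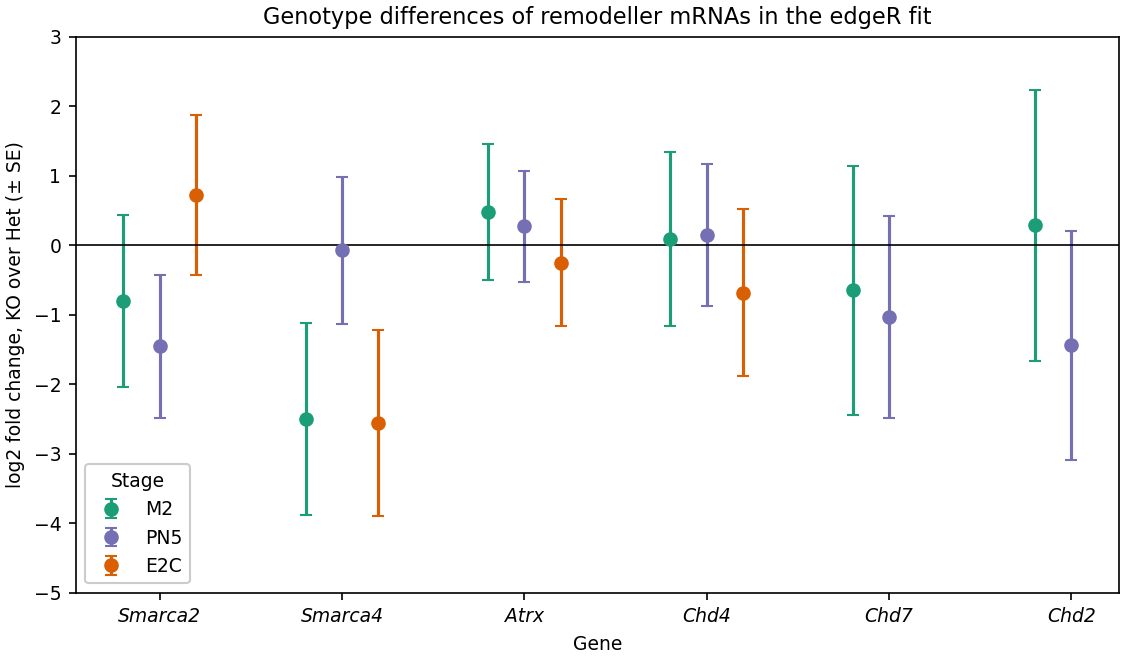
Log2 fold changes of KO over Het from the edgeR fit for Smarca2, Smarca4, Atrx, Chd4, Chd7 and Chd2 at each stage, with bars of 1 SE; Chd7 and Chd2 have no E2C point because 1 group there was at 0 counts. The largest departures from 0 are those of Smarca4 at M2 (-2.50) and E2C (-2.56), and no point passed at an adjusted p under 0.05.

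The stage comparisons ask how the ribosome-bound share changed from egg to zygote and from zygote to early 2-cell embryo. From M2 to PN5 in Het, Smarca2 was the only member whose groups did not overlap (16.5% of protein-coding genes), higher in all 3 PN5 libraries by a log2 fold change of 1.61 ± 1.19 (edgeR adjusted p = 0.919). Without M2 Het replicate 1 this was 1.10, without M2 Het replicate 2 it was 2.40, and without PN5 Het replicate 3 it was 1.14. In KO the groups of Atrx, lower in PN5, and Chd4, higher in PN5, did not overlap (8% of protein-coding genes). No gene was called in either genotype (0%), with 17 genes (3.43%) in Het and 21 (4.24%) in KO at an unadjusted p under 0.05 in edgeR, and DESeq2 called 4 (0.808%) and 1 (0.202%) and limma-voom 0 and 0.

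From PN5 to E2C in Het, 3 members had groups without overlap (15.8% of protein-coding genes): Smarca2 and Chd2 were lower and Smarca4 higher in all 3 E2C libraries. For Chd2 the E2C libraries at 0 allow 0.0385% to 0.283% each, which reaches the PN5 Het shares of 0.0348% to 0.0894%. The log2 fold change was -4.52 ± 1.17 for Smarca2 (edgeR adjusted p = 0.141) and 2.40 ± 1.11 for Smarca4 (adjusted p = 0.246). edgeR called 0 of 495 genes (0%) and took 97 (19.6%) at an unadjusted p under 0.05, Smarca2, Bptf, Chd2 and Smarca4 among them. DESeq2 called 49 genes (9.9%), among them Smarca2 (-3.57, adjusted p = 9.65e-04) and Smarca4 (3.58, adjusted p = 0.00252), and limma-voom called 11 (2.22%), among them Smarca2 alone of the members (-4.83, adjusted p = 0.0368). Over all alternatives the adjusted p ran up to 0.417 for Smarca2 and up to 1 for Smarca4.

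The fold changes of this comparison depend on the scaling. Their median over the 495 genes was -1.90 in Het and moved by up to 1.29 between scalings, and 160 of 425 protein-coding genes were at 0 in 1 of the groups. With those genes at their limits the protein-coding median was -0.76. Smarca2 was below and Smarca4 above either median, and the shares given above had the same order. Atrx was at -1.55 ± 0.82 (edgeR adjusted p = 0.275), but between -0.35 and -0.29 under the 3 other scalings and at -0.22 in DESeq2, and its mean shares were 1.08% in PN5 Het and 0.838% in E2C Het. In KO the median over the 495 genes was -1.60 and moved by up to 1.44 between scalings, and with genes at 0 in a group at their limits the protein-coding median was 0.00. Smarca2 was at -2.34 ± 1.24 (edgeR adjusted p = 0.598) and Atrx at -2.07 ± 0.97 (adjusted p = 0.562) there. With protein-coding counts as the library size these values were -0.58 and -0.54, and Smarca2 was at -0.98 without PN5 KO replicate 3. Atrx, with lower shares in E2C, and Chd7, at 0 in E2C, had groups without overlap (22.8% of protein-coding genes). For Atrx the nearest libraries were E2C KO 1 (1.17%, 19 counts) and PN5 KO 3 (1.20%, 479 counts). The binomial interval of E2C KO 1, 0.706% to 1.82%, took in the shares of all PN5 KO libraries. The Atrx shares alone therefore do not show a lower level. For Chd7 the E2C KO libraries allow 0.185% and 0.264%, above the PN5 KO shares of 0.130% to 0.180%, so a lower level is not shown. No gene was called by edgeR (0%), 43 (8.69%) were at an unadjusted p under 0.05, DESeq2 called 14 (2.83%) and limma-voom 0, and no member was among the calls.

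Of 109 remodeller genes listed by family, 100 are no members, and 36 of these 100 had a count in any library, as had 17.7% of all protein-coding genes. The 9 members held 81.8% of the list's 13119 counts, a share that their choice by high counts sets in part. Both BAF motors were found in every library. Of the 26 other BAF and PBAF subunits 7 had any count (26.9%, against 17.7% of all protein-coding genes). Besides Brd9 and Brd7 these were Bcl7a (17 counts), Arid1a (9), Actl6b (3), Actl6a (2) and Dpf1 (1). The core subunits Smarcb1, Smarcc1, Smarcc2, Smarcd1 and Smarce1, and Arid2 and Pbrm1 of PBAF, were at 0 in all 15 libraries. So were 17652 of the 21447 protein-coding genes. Of 12 other NuRD genes beside Chd4, 2 had counts (16.7%, near the share of all protein-coding genes), Rbbp7 (71) and Gatad2b (26). The CHD family had 7 of 10 genes with counts, the ISWI subunits 7 of 10, the INO80, SRCAP and TIP60 group 10 of 31 and the group of Atrx and other SNF2 proteins 9 of 16. Of the ISWI motors Smarca5 had 33 counts in 8 libraries and Smarca1 0.

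Of the list, 21 genes were tested, and none was called in any comparison by edgeR. At PN5 14 of 21 were lower in KO, with a median log2 fold change of -0.71, and 8 of the 12 that are no members were lower. Over all genes tested it was 244 of 495, with a median of 0.00. Under the 3 other scalings 12 of the 21 were lower, with medians between -0.40 and -0.09, while the medians of all genes were between 0.20 and 0.32. At M2 9 of 21 were lower and 11 higher (252 and 220 of 495 over all genes), or 11 lower and 9 higher by library totals alone. At E2C 8 of 21 were lower, 7 higher and 6 equal (188, 184 and 123 of 495). From PN5 to E2C in Het 16 of 21 were lower (341 of 495 over all genes), and 13 to 15 under the other scalings. With the 8 genes that were at 0 in 1 group at their limits, the median of the list there was -0.85, against -0.76 for the protein-coding genes.

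The 6 other remodeller genes with the most counts were Hmgxb4 (353), Baz1b (340), Cecr2 (242), Srcap (156), Ino80 (134) and Rsf1 (130). Hmgxb4 and Baz1b had more counts than the members Smarca4 (308), Bptf (294), Chd2 (159) and Brd7 (150). Hmgxb4, listed with NURF, had its highest group mean in PN5 Het, like Smarca2: 0.307 ± 0.155% there (n = 3) against 0.0911 ± 0.0843% in PN5 KO (n = 3; edgeR adjusted p = 1). Baz1b, a partner of Smarca5, lay between 0.0999% and 0.150% in 5 of 6 groups and at 0.0308% in E2C KO on 1 count. Cecr2, another ISWI partner, was highest in E2C KO, 0.528% and 0.986% on 22 counts. Ino80 and Srcap, motors of their own complexes, were at 0 in all E2C libraries, which allow 0.0385% to 0.283% each. Their highest group means were 0.140% (Ino80, M2 KO) and 0.104% (Srcap, PN5 KO). Ino80 was also at 0 in PN5 KO and Srcap in M2 KO. Rsf1, a Smarca5 partner, was found in 13 libraries at group means of 0.0278% to 0.136%.

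By Spearman correlation of shares over the 15 libraries, the protein-coding genes most like the sum of the 9 were Ppp4r2 (0.75), Akap12 (0.73) and Sf3b2 (0.71), and those most like Smarca2 were Akap7 (0.86), Septin11 (0.85) and Akap12 (0.81). Akap12, an anchoring protein of protein kinase A, had a mean share of 1.07% in PN5 Het and of 0.132% to 0.371% in the other groups. These are descriptions over libraries that share groups and depth. The number of members found in a library ran with its protein-coding counts (Spearman 0.87), from 4 of 9 in E2C Het 1 and E2C KO 2 to all 9 in PN5 Het 1. For single shares this relation was 0.35 for Smarca2, 0.43 for Atrx and -0.58 for Smarca4, which was highest in the shallow E2C Het libraries. The E2C Het libraries had 1059, 1655 and 7795 protein-coding counts. The E2C KO libraries had 1623 and 1136, with 5 and 1 counts of Smarca4. The part of depth in the Smarca4 differences between stages and genotypes was not tested.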

How the data were processed

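Per the labels' protocols, lysates were treated with RNase I (100 units, 45 min), tagged ribosomes were captured on anti-HA beads (4 h), and libraries were amplified by 22 PCR cycles. The values are the authors' estimated counts in whole numbers, deposited unscaled as 1 table. The submitters' processing notes name STAR 2.7.6a, StringTie 2.1.4, cutadapt, deepTools 3.5.1 and the build GRCm38. Not given in the sources used here are how the counts were derived and how reads of several genes were treated. Symbols are the table's. Biotypes and coordinates came from RefSeq (GRCm38.p6), where 39101 genes were found under their symbol and 164 under an older one. The libraries carry no stated molecular identifiers, so reads may be PCR copies of 1 molecule, and intervals and limits of 3 counts cover counting error only.

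Levels are shares of protein-coding counts, with the SD over the libraries of a group. Tests used edgeR 4.0.16 in R 4.3.3: filterByExpr with a minimum count of 10, TMM factors and 1 robust quasi-likelihood fit of the 6 group means to all 15 libraries, with 9 residual degrees of freedom and Benjamini-Hochberg adjustment over 495 genes at 0.05. The SE was computed from the fold change and its F statistic. Fold changes carry a prior count of 0.125, and none is given where a group is at 0. The model was also run on simulated counts. Their spread between replicates was below that of the median protein-coding gene here (a biological coefficient of variation of 1.36). That run therefore does not give the power of the model on these data. Alternatives were DESeq2 1.42.0, limma-voom (limma 3.58.1), 3 other scalings, 2 other filters, a replicate block and leaving out each library. Replicate numbers did not pair the samples (correlations of deviations from -0.324 to 0.104), and every pair of replicates differed by more than sampling noise.

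The members, the gene lists and the tests were chosen with earlier results of these data known. The named genes are the 9 members, the 6 other listed remodellers with the most counts, and the 3 protein-coding genes most like the members' sum and the 3 most like Smarca2. Genes and ratios named outside this rule were chosen after their values were seen. No sequence is printed, since the promoter and miRNA tables used here do not bear on ribosome-bound coding RNA.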

Additional observations from a re-analysis of the deposited data

How the results depend on the processing

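edgeR called 0 genes in each comparison, and this held with other size factors, library totals alone, protein-coding library sizes and the replicate block (0 genes called in every comparison with the replicate block, within stages or across them). DESeq2 called 2 genes for KO against Het at M2, 2 at PN5, 4 at E2C and 2 for the mean of the stages, 4 for PN5 against M2 in Het and 1 in KO, and 49 for E2C against PN5 in Het and 14 in KO. limma-voom called 11 for E2C against PN5 in Het. With no low-count filter (5763 genes) 1 gene was called at E2C, 1 for the mean of the stages, 3 and 1 for E2C against PN5 in Het and KO, and 2 for the change of the KO difference from PN5 to E2C, and with a mean of at least 50 counts (63 genes) 3 for E2C against PN5 in Het. Leaving out single libraries gave 0 to 1 genes for KO against Het at E2C and for E2C against PN5 in Het (1 without E2C Het replicate 2), and 0 elsewhere.

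The summed share in M2 Het, M2 KO and E2C KO was 2.72%, 3.06% and 2.102% of all counts other than ribosomal RNA. The other groups are not given by this measure, so it does not show the place of PN5 Het. Without the 10 leading mRNAs, Smarca2 among them, the summed share was 3.45%, 4.71%, 3.34% and 2.50% in M2 Het, M2 KO, PN5 Het and E2C KO. PN5 KO and E2C Het are not given for it. Without Smarca2 alone the summed share was 1.99%, 2.74%, 2.095% and 2.09% in M2 Het, M2 KO, PN5 Het and E2C KO. It was 2.45% in PN5 KO and 2.67% in E2C Het. Leaving out single libraries gave 3.004% to 3.34% in M2 Het, 3.27% to 3.87% in M2 KO, 4.81% to 6.95% in PN5 Het, 2.96% to 4.29% in PN5 KO, 2.86% to 3.49% in E2C Het and 2.73% to 3.27% in E2C KO.

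Some log2 fold changes turned their sign, none of them past the threshold, and the cause was not tested. Smarca4 for KO at PN5 was 0.11 with DESeq2 size factors, 0.62 by library totals, 0.037 by protein-coding library sizes, 0.14 without the filter, 0.14 in DESeq2 and 0.10 in limma-voom. Atrx for KO at E2C was 0.16 by protein-coding library sizes and 0.15 with the replicate block, and for E2C against PN5 in Het 0.085 with a mean of at least 50 counts. Chd4 for KO at E2C was 0.060 with the replicate block, Chd2 for KO at M2 was -0.23 by library totals, and in limma-voom Chd7 was 0.25 for KO at PN5 and -0.082 for PN5 against M2 in Het. Over single libraries left out, the KO differences ran from -0.0038 to 0.32 for Atrx in the mean of the stages, from -0.76 to 0.21 for Atrx at E2C, from -0.48 to 0.45 for Smarca4 at PN5, from -0.32 to 0.65, -0.46 to 0.68 and -2.42 to 0.44 for Chd4 at M2, PN5 and E2C, from -1.31 to 0.61 for Chd7 at M2, and from -0.43 to 1.82 for Chd2 at M2. Those that kept their sign ran from -0.96 to -0.25 for Smarca2 and -2.14 to -1.30 for Smarca4 in the mean of the stages, from 0.20 to 1.14 for Smarca2 at E2C, from 0.20 to 0.82 and 0.062 to 0.51 for Atrx at M2 and PN5, and from -1.61 to -0.21 for Chd7 at PN5. For E2C against PN5 in Het they ran from -4.94 to -4.00 for Smarca2 and from 2.07 to 2.92 for Smarca4. The features of the members' proteins and their windows were not run, since no protein sequences were used here. Depth limits E2C most: a gene at 0 there may hold up to 0.283% of a library.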

Other observations

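The members differed in how their counts were spread over the libraries. Against counting error alone, the chi-square per degree of freedom of their shares ran from 15.1 for Bptf to 203 for Smarca2. All 9 members lay above the median of 14.5 over 425 protein-coding genes. This measure rises with a gene's counts, so the choice of the members by high counts sets that result in part. Smarca2 and Smarca4 had the highest values, 203 and 56.2. In the edgeR fit, which sets libraries against their own group, only 3 of the 9 (Bptf, Brd9 and Brd7) lay above the median biological coefficient of variation of 1.36, at 1.62, 1.88 and 2.29. The 4 members found in all 15 libraries were Smarca2, Smarca4, Atrx and Chd4, and 47 of the 425 genes (11.1%) were. The choice by high counts bears on this number too. These values describe the members and were not tested.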
